A study of Homo sapiens with 3 samples.

Results

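Transcripts of the canonical histone genes were followed in KYSE140 cells, a human line established from squamous cell carcinoma of the oesophagus. The members were every gene of the series that RefSeq lists under an older name of the HIST1, HIST2, HIST3 or HIST4 clusters and that had a probe set annotated to it alone, which gave 45 of the 19775 genes compared. They comprised 43 protein-coding genes and 2 pseudogenes (H2AC5P and H4C10P). By class there were 6 linker histone H1 genes, 9 H2A, 13 H2B, 8 H3 and 9 H4 entries, and by cluster 42 lay in HIST1, 1 in HIST2 (H2BC21), 2 in HIST3 (H2AC25 and H3-4) and none in HIST4. Of the 71 protein-coding cluster genes in RefSeq, 28 had no probe set of their own, and 19 of those 28 appeared on probe sets shared between genes.

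One array was hybridised with RNA of untreated cells and 2, B1 and B2, with RNA of cells given the DNA-crosslinking platinum compound cisplatin (CDDP) for 12 h, at a concentration labelled as 10 mM. All cells were grown in serum-containing RPMI medium with antibiotics, and no other treatment or genotype is given. Values are RMA intensities, brightness units on a linear scale after background correction and normalization between arrays, and each gene is represented by its brightest probe set. The untreated group had no replicate, and B1 and B2 are not labelled as separate cultures. The p-values therefore rest only on the spread between B1 and B2, pooled in part over genes, and that spread may be technical. In RNA of a whole culture, a larger share of cells making a transcript and more of it per cell cannot be told apart.

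Canonical histone genes encode the core histones H2A, H2B, H3 and H4, which wrap DNA into nucleosomes, and the linker histone H1, which binds DNA between nucleosomes. They are switched on together in S phase, and their main mRNAs end in a stem-loop bound by SLBP in place of a poly(A) tail. Some of them also make polyadenylated mRNAs by reading through the stem-loop, as in cells that leave the cycle. Labelling for these arrays starts from poly(A) tails, so the stem-loop form of a histone mRNA is poorly copied and the intensities mainly describe polyadenylated forms. Copies within a class have very similar coding sequences, so a probe set annotated to 1 histone gene may also bind transcripts of another.

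Histone transcripts were mostly higher in the cisplatin arrays than in the untreated array, slightly in B1 and more in B2. The median intensity of the 45 genes was 35.4 without cisplatin, 39.8 in B1 and 59.0 in B2. The median log2 difference from untreated was 0.12 in B1 and 0.44 in B2, against 0.03 and 0.05 over all 19775 genes. Over all 19775 genes the median untreated intensity was 68.2. A mean log2 value of at least 6 was reached by 31.1% of histone genes and 51.6% of all genes, so many of these differences start from a dim signal. In the untreated array 22 of the 45 lay below that array's median over all probe sets (34.8), a level that splits all probe sets evenly.

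By direction, 32 of 45 histone genes were higher than untreated in both cisplatin arrays (39.2% of all genes were) and 3 were lower in both (27.4% of all genes). The 3 were the linker histone genes H1-1 and H1-4 and the core histone gene H2BC14. Both differences use the same untreated array, so they are not independent. In B1 alone 33 of 45 were higher (55.0% of all genes) and 11 lower (44.8%), and in B2 alone 41 were higher (56.6%) and 4 lower (43.3%). Dim genes as a whole leaned upwards: below a mean log2 value of 6, an intensity of 64, 49.3% of all genes were higher in both arrays, beside 21 of 31 histone genes. At or above that level the shares were 29.8% of all genes and 11 of 14 histone genes.

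**Figure D1:**
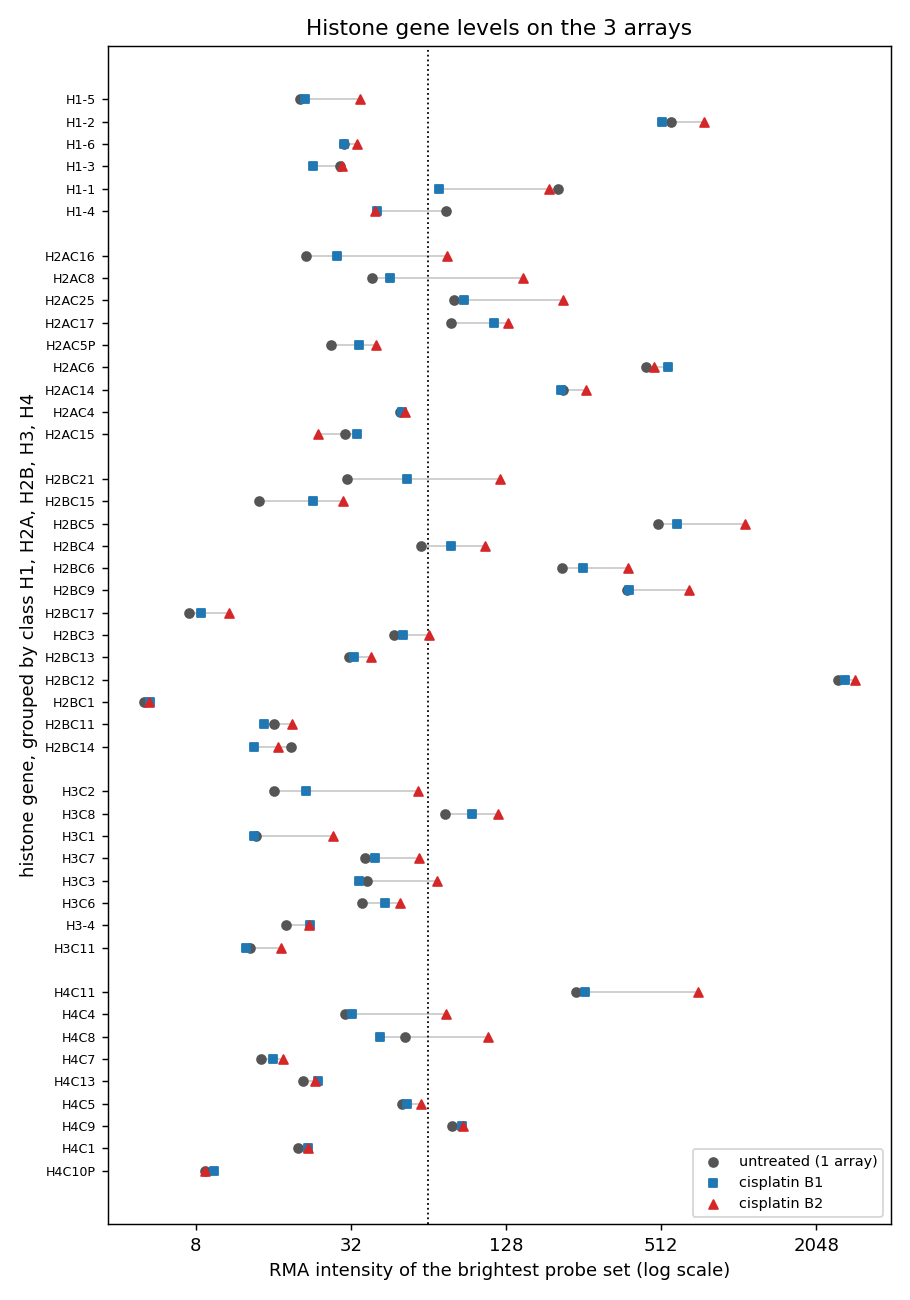
RMA intensity of the brightest probe set (log axis) for the 45 histone genes, grouped by class, in the untreated array (circles), B1 (squares) and B2 (triangles); the dotted line marks an intensity of 64 and grey lines join the arrays of a gene. B2 is the rightmost point for most core histone genes, whereas for H1-1, H1-4 and H2BC14 the untreated array is.

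No histone gene passed the test. In limma's test with Benjamini-Hochberg adjustment over all genes, 0 of 45 histone genes and 0 of 19775 genes (0%) passed an adjusted p of 0.05, and the smallest adjusted p of a histone gene was 0.97. Before adjustment, limma's p was under 0.05 for 2 histone genes, H1-4 and H2BC15, and for 565 of all genes (2.86%). The fit had 1 residual degree of freedom, so the differences below are given as values of these arrays, with limma's standard error as SE.

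By size, none of the 45 differed at least 2-fold from untreated in both cisplatin arrays, whether higher (0.142% of all genes) or lower (0.678%). In B1 none was at least 2-fold higher (0.238%) and 1, H1-1, was at least 2-fold lower (1.51%). In B2 10 of 45 were at least 2-fold higher, against 2.99% of all genes, and none was 2-fold lower (4.5%). The 10 were H2AC8, H2AC16, H2AC25, H2BC5, H2BC15, H2BC21, H3C2, H4C4, H4C8 and H4C11, so they came from all 4 core classes and not from H1. For 36 of the 45 genes the probe set was not of a type that can match several transcripts by design (_x_at or _s_at). Of those 36, 6 were past 2-fold in B2, none of them an H3 gene. Of the 10, 3 were among the 14 brighter histone genes and 7 among the 31 dimmer ones, where 3.82% and 2.1% of all genes were past 2-fold.

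B2 differed from B1 as well as from the untreated array. Histone genes were higher in B2 than in B1 in 38 of 45 cases (51.9% of all genes), at least 2-fold in 11 (3.32%), and never 2-fold lower (2.91%). The median log2 difference between B2 and B1 was 0.36, against 0.01 over all genes. In 27 of 45 the intensity was lowest in untreated, between in B1 and highest in B2, an order held by 24.8% of all genes. The cisplatin arrays are repeats of 1 condition and have no order of their own.

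**Figure D2:**
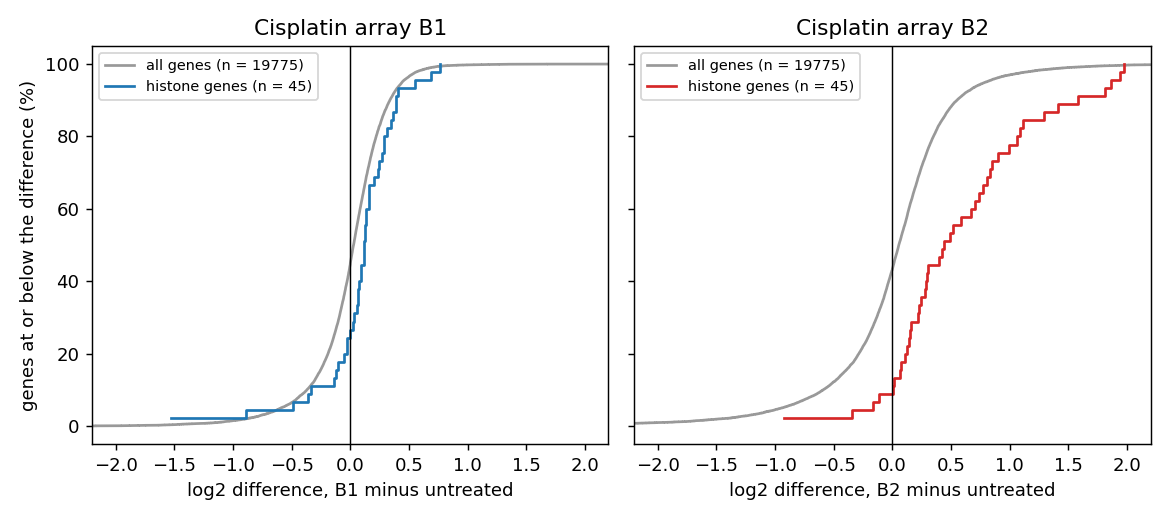
Share of genes (%) at or below each log2 difference from untreated, in B1 (left) and B2 (right), for all 19775 genes (grey) and the 45 histone genes (colour). The histone curve lies mostly right of the grey one in B1 and well right of it in B2, with medians of 0.12 and 0.44 against 0.03 and 0.05.

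Promoter sequences from RefSeq (GRCh38.p14) were available for 41 of the 45 genes, and the 250 bases before each annotated start were searched on both strands for 3 textbook elements of histone promoters. These were the TATA box (TATAAA), the CCAAT box bound by NF-Y (CCAAT), and the octamer bound by POU2F1 (ATTTGCAT), which is known from H2B promoters. The motifs do not contain one another. TATAAA was found in 28 of 41 histone promoters (68.3%; 11.1% of 27305 promoters), CCAAT in 36 (87.8%; 33.0%) and ATTTGCAT in 16 (39.0%; 1.66%). In 22 of the 28 a TATAAA began within 50 bases of the start, and in the other 6 it lay only farther upstream. Some H2A and H2B genes sit head to head, so the window reaches the partner's promoter and a site can count for both. The far TATAAA of H2BC4, H2BC14 and H2BC17 is the near one of their partners H2AC6, H2AC14 and H2AC17. The octamer was found in 10 of 13 H2B and 6 of 8 H2A promoters and in none of the 6 H1, 7 H3 and 7 H4 promoters. The octamers of H2AC6, H2AC14 and H2AC17 are the sites also counted for their partners H2BC4, H2BC14 and H2BC17. CCAAT was in every H1, H2A, H2B and H3 promoter searched but in 2 of 7 H4 promoters.

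The 150 bases before the start are printed for 8 genes, with letters of the 3 motifs on either strand in capitals (ATTGG and TTTATA are CCAAT and TATAAA read on the other strand). They show H2BC21, H2AC8, H3C2, H4C11 and H4C4, among the largest differences in B2, beside H2BC5 and H2BC12, whose signals were strong on every array, and H1-4, which was lower in both cisplatin arrays.
H2BC21 (chr1:149886683-149886832, minus strand): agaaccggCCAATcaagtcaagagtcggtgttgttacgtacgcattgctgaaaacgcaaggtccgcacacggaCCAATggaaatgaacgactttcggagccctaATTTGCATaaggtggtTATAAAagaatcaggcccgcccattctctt
H2BC12 (chr6:27146859-27147008, minus strand): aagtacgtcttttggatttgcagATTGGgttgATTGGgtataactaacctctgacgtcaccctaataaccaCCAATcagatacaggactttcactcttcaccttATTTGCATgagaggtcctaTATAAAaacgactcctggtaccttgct
H2BC5 (chr6:26157971-26158120, plus strand): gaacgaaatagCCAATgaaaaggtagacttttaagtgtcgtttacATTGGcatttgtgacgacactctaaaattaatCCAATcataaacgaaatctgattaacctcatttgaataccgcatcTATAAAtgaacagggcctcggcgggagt
H2AC8 (chr6:26216771-26216920, plus strand): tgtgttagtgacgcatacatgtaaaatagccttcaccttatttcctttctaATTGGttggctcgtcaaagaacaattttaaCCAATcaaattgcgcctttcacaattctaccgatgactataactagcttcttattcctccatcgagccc
H3C2 (chr6:26032100-26032249, minus strand): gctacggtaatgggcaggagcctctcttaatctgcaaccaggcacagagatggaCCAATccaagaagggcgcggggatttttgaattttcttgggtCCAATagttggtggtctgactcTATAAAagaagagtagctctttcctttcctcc
H4C11 (chr6:27823942-27824091, plus strand): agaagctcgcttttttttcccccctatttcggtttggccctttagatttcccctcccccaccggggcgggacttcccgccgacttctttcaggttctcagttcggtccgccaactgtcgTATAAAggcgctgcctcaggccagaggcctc
H4C4 (chr6:26189113-26189262, minus strand): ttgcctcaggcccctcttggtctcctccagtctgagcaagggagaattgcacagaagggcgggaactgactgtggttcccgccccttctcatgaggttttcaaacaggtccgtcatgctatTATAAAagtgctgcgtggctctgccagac
H1-4 (chr6:26156179-26156328, plus strand): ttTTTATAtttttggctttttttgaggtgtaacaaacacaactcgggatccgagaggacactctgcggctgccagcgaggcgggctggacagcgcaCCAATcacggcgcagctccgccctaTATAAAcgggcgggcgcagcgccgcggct

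H2BC21 and H2BC12 both carried an octamer starting 46 bases before the start, followed by TATAAA, yet their log2 differences in B2 were 1.97 and 0.22. H2BC5, at 1.12 in B2, had no octamer in the window. Over the 16 promoters with an octamer the median log2 difference in B2 was 0.48, and over the 25 without it 0.49. It was 0.37 over the 28 with TATAAA and 0.78 over the 13 without, and 0.47 over the 36 with CCAAT and 1.06 over the 5 without, all 5 of them H4 promoters. Within H4 the TATAAA order was the other way, 0.79 over 4 with it and 0.25 over 3 without. These matches describe letters and not binding, and a site shared by head-to-head genes counts for both partners.

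Linker histone genes were the class with the lowest medians, -0.24 in B1 and 0.09 in B2 on the log2 scale (6 genes, 1 higher and 2 lower in both arrays). H1-4, a replication-dependent linker histone, had intensities of 75.1 in untreated, 40.4 in B1 and 39.7 in B2. Both cisplatin arrays were thus low and close together, and the untreated array was 1.86 and 1.89 times as bright (log2 difference -0.91, limma SE 0.18). H1-1 had 204 in untreated, 70.6 in B1 and 189 in B2, so that B1 alone stood apart. Its untreated intensity was 2.89 times that of B1 and 1.08 times that of B2.

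H1-2, the linker histone with a strong signal on every array, had 561 in untreated, 514 in B1 and 752 in B2, with the untreated value between the cisplatin arrays. H1-3 had 29.2, 22.8 and 29.5, again split. The 2 remaining H1 genes were dim. H1-5 differed by 0.07 in B1 and 0.78 in B2, and the testis-specific H1-6 by 0.00 and 0.16. H1-6 had a second, dimmer probe set at 0.79 and 0.61.

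H2A genes, whose product pairs with H2B in the nucleosome, had median log2 differences of 0.24 (B1) and 0.59 (B2). Of the 9 entries, 7 were higher in both arrays, among them the pseudogene H2AC5P (0.36 and 0.59), and none was lower in both. H2AC8 had an intensity of 38.7 in untreated, 45.6 in B1 and 149 in B2, or 1.18-fold and 3.85-fold of untreated (mean log2 difference 1.09, SE 0.87). H2AC16 had 21.5, 28.3 and 75.8, 1.31-fold and 3.52-fold. For both genes B1 lay near the untreated array and B2 well above it. H2AC25, of the HIST3 cluster, had 80.1, 88.1 and 213, or 1.10-fold and 2.66-fold, and its second probe set differed by 0.17 and 0.71.

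H2AC17 differed from those 3 in that B1 and B2 were alike, at 115 and 131 against 78.3 in untreated (mean log2 difference 0.65, SE 0.21). H2AC6 had 446, 545 and 479, so B1 was its highest array. H2AC14 had 213, 209 and 262. H2AC15 had 30.4, 34.0 and 23.9, the only core histone gene other than H2BC14 that was lower than untreated in B2, and its dimmer probe set was higher in both arrays (0.30 and 0.16).

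H2B genes had median log2 differences of 0.12 (B1) and 0.51 (B2), with 11 of 13 higher in both arrays and 1 lower. H2BC21, the HIST2 gene, gave the largest upward difference of the 45 genes in each array, with 31.1 in untreated, 52.8 in B1 and 122 in B2, or 1.70-fold and 3.92-fold (mean log2 difference 1.37, SE 0.63). H2BC15 had 14.1, 22.7 and 29.9, 1.62-fold and 2.12-fold (0.89, SE 0.27). Both H2BC21 and H2BC15 had an untreated signal below the median of that array (34.8). These were the 2 histone genes at least 1.5-fold higher in both cisplatin arrays, against 0.956% of all genes.

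H2BC5 had 498 in untreated, 591 in B1 and 1080 in B2, or 1.19-fold and 2.17-fold, from a signal far above the dim range. Its second probe set gave 0.17 and 0.95 on the log2 scale, beside 0.25 and 1.12 for the brightest. H2BC4 had 59.7, 78.1 and 106, H2BC6 had 211, 255 and 379, and H2BC9 had 376, 384 and 659. All 3 were 1.75-fold to 1.80-fold of untreated in B2, with B1 between the untreated array and B2. Probe sets of H2BC5, H2BC6 and H2BC9, like those of H2AC14, H3C8 and H4C11, are of a type (_x_at) whose probes can match several transcripts. Those of H2AC6, H2BC21 and H3C2 are of a related type (_s_at), which can also match several transcripts.

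H2BC12 had a strong signal on every array, with 2484 in untreated, 2645 in B1 and 2891 in B2. Its arrays lay close together, at 1.06-fold and 1.16-fold of untreated (mean log2 difference 0.15, SE 0.19). H2BC14 was dim and lower in both arrays, with 18.8, 13.4 and 16.8. The remaining 5 H2B genes were dim too, and none of them differed by 1.5-fold in either array. H2BC1, the testis-specific H2B gene, was at 5.04, 5.31 and 5.26.

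H3 genes, whose product forms a dimer with H4, had median log2 differences of 0.21 (B1) and 0.69 (B2), and all 8 were higher than untreated in B2. H3C2 had 16.1 in untreated, 21.4 in B1 and 58.6 in B2, or 1.33-fold and 3.63-fold (mean log2 difference 1.13, SE 0.75). H3C8 had 74.5, 94.5 and 119, or 1.27-fold and 1.59-fold, with B1 midway. Just short of 2-fold in B2 were H3C1 (-0.03 in B1 and 0.99 in B2) and H3C3 (-0.11 and 0.90), both near untreated in B1. H3-4, a testis-enriched variant encoded in the HIST3 cluster, was alike in both arrays (0.31 and 0.31).

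H4 genes, which nearly all encode the same protein, had median log2 differences of 0.12 (B1) and 0.25 (B2), with 8 of 9 entries higher in both arrays. The 8 include the dim pseudogene H4C10P (0.12 and 0.01). In B2 3 were past 2-fold and the other 6 lay between 0.01 and 0.28. H4C11 had 239 in untreated, 260 in B1 and 714 in B2, or 1.09-fold and 2.99-fold (mean log2 difference 0.85, SE 0.75). H4C4 had 30.5, 32.5 and 74.8, or 1.07-fold and 2.46-fold. H4C8 had 52.2, 41.4 and 109, lower than untreated in B1 and 2.09-fold in B2, although its second probe set was higher in both (0.16 and 1.10). H4C9, with 79.3, 86.2 and 87.3, stayed within 1.10-fold of untreated.

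**Figure D3:**
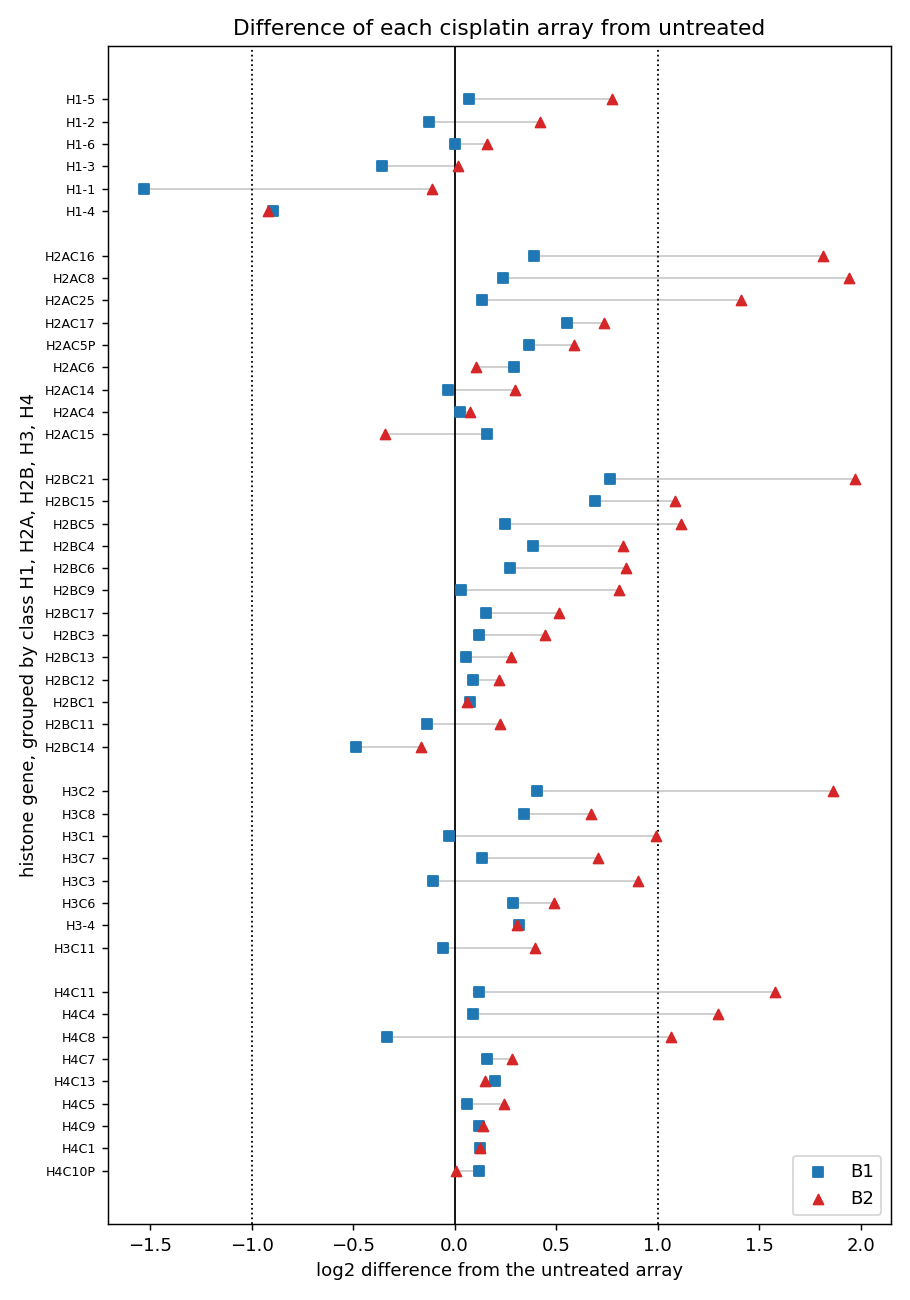
Log2 difference from the untreated array in B1 (squares) and B2 (triangles) for the 45 histone genes, grouped by class; dotted lines mark 2-fold. In B2 10 core histone genes lie beyond the right dotted line and none beyond the left, while in B1 H1-1 alone is beyond a dotted line.

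Of the 45 genes, 20 were neither past 2-fold in an array, nor bright, nor among the 5 lowest. Their intensities ran from 5.04 to 69.3. Their log2 differences ran from -0.13 to 0.36 (median 0.10) in B1 and from 0.01 to 0.99 (median 0.29) in B2, and 15 of them were higher in both arrays and 5 were split. Over the 14 brighter histone genes the B2 median was 0.71, and over the 31 dimmer ones 0.40.

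Several H2A and H2B genes sit head to head and share the sequence between their starts. Among coding cluster genes next to each other by start in RefSeq, 11 such pairs were found. Both genes were measured in 4 of them, with 193 to 245 bases between the genes. A pair with another cluster gene starting inside a long span of 1 partner would be missed. In the pair H2BC4 and H2AC6 the B2 differences were 0.83 and 0.10, and in H2AC15 and H2BC15 they were -0.34 and 1.09. In H2AC14 and H2BC14 they were 0.30 and -0.17, and in H2AC17 and H2BC17 they were 0.74 and 0.51. In 2 of the 4 pairs the partners thus lay on opposite sides of the untreated array in B2. That count depends on the probe set, since the dimmer one of H2AC15 was at 0.16 in B2, on the side of H2BC15. In the other pair H2BC14 was dim, with 18.8 in untreated and 16.8 in B2. In B1 the partners of all 4 pairs lay on the same side, at 0.39 and 0.29, 0.16 and 0.69, -0.03 and -0.49, and 0.55 and 0.16 in the same order.

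Gene models longer than a stem-loop mRNA were examined because they include transcripts with other 3′ ends. Annotated spans exceeded 1000 bases for 5 members: H2BC5, H2BC4, H2BC12, H3C6 and H2BC21. All 5 were higher in both arrays (medians 0.29 and 0.83), as were 27 of the 40 shorter genes (medians 0.12 and 0.41). Over all genes the share was 39.2%. The 2 long genes past 2-fold in B2, H2BC21 and H2BC5, were read on probe sets that can match several transcripts. H2BC12 was at 0.09 and 0.22. A span does not tell which 3′ end a probe set reads, and this was not tested. By position, the HIST1 cluster fell into 3 blocks separated by its 2 widest gaps. The block with 26 members had medians of 0.11 in B1 and 0.54 in B2, the block with 13 members 0.12 and 0.40, and the small block with 3 members, which holds H2BC12, 0.09 and 0.22.

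A further 20 probe sets were annotated to several histone genes each and were left out of the 45. They carry another readout of the same clusters, although their probes and those of the members can bind the same transcripts. Of the 20, 14 were higher in both cisplatin arrays (39.3% of all 54613 probe sets other than controls), 1 lower in both (28.3%) and 5 split, and 19 were higher in B2 (55.7%). The median log2 difference was 0.19 in B1 and 0.90 in B2. None was at least 2-fold higher in B1 (0.368% of all probe sets) and 8 were in B2 (2.24%). The largest difference was on a probe set shared by 2 H2B genes, with intensities of 34.3, 36.9 and 167, where B1 was 0.10 and B2 2.28 higher than untreated on the log2 scale.

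One shared probe set with a very strong signal went the other way. This probe set annotated to 14 H4 genes had 9372 in untreated, 7696 in B1 and 6708 in B2, log2 differences of -0.28 and -0.48. Another probe set annotated to the same 14 genes had 206, 234 and 530 (0.18 and 1.36), and yet another had 29.2, 50.7 and 110 (0.80 and 1.91). Probe sets with the same H4 annotation therefore differed in direction, and which H4 transcript each measured cannot be told apart here.

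**Figure D4:**
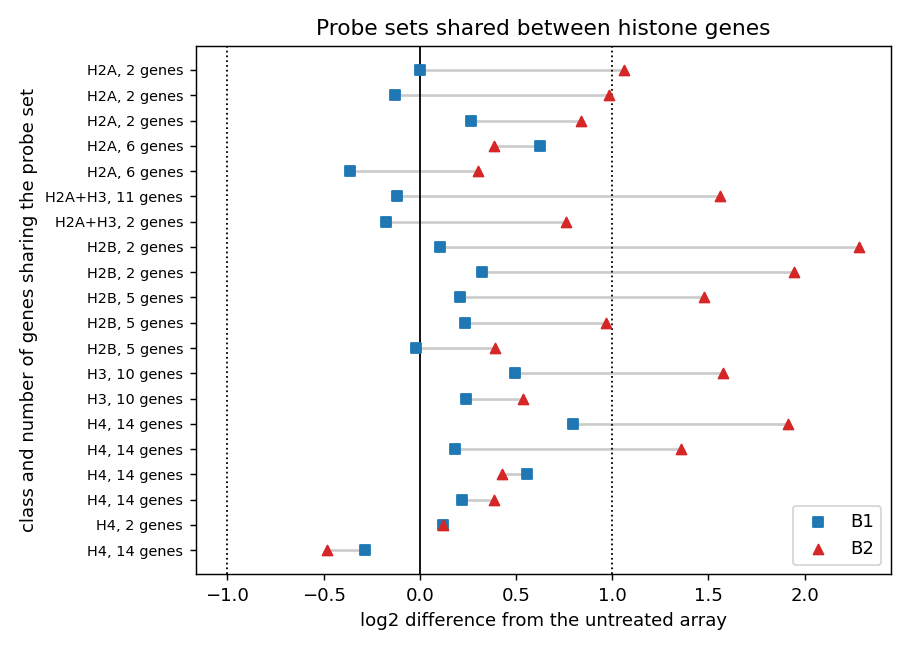
Log2 difference from untreated in B1 (squares) and B2 (triangles) for the 20 probe sets annotated to several histone genes, labelled by class and number of genes; dotted lines mark 2-fold. B2 lies right of 0 for 19 of them, and the probe set at the bottom, of 14 H4 genes, lies left of 0 in both arrays.

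Histone genes listed as replication-independent, mostly expressed through the cycle from polyadenylated mRNAs, had median differences of 0.11 (B1) and 0.45 (B2). Of 9 measured, 4 were higher and 1 lower in both arrays (39.2% and 27.4% of all genes). None passed limma's test and none was 2-fold from untreated in B2. H1-10, a linker histone variant, had 296, 399 and 585 (0.43 and 0.98). H3-3A, which encodes the variant H3.3, had 187, 206 and 277. H2AJ had 404, 437 and 553, and H2AZ1, the bright H2A.Z gene, 6736, 7542 and 7785. MACROH2A1, a large H2A variant, had 3683, 3362 and 2929, lower in both. H2AX, whose product is phosphorylated at DNA breaks, had 1678, 2021 and 1398, on opposite sides of untreated. MACROH2A2 (-0.01 and 0.97) and the centromeric CENPA (-0.09 and 0.71) were split too, near untreated in B1 and higher in B2.

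Factors that make and process histone mRNA had medians of 0.00 (B1) and -0.09 (B2), over 19 genes, with 0 past limma's test. In both arrays 5 were higher and 5 lower (39.2% and 27.4% of all genes). SLBP, which binds the stem-loop, had 1522 in untreated, 1774 in B1 and 1654 in B2. NPAT, the cyclin E-CDK2 substrate that activates histone genes in S phase, had 229, 160 and 125, or -0.52 and -0.87. TUT4, a terminal uridylyltransferase, had 187, 97.1 and 88.4 (-0.94 and -1.08). The scaffold gene SYMPK of the cleavage complex was at -0.15 and -0.68, the U7 snRNP factor gene ZNF473 at 0.13 and 0.25, and SRRT (ARS2) at 0.23 and 0.26. On opposite sides of untreated were ERI1, the exonuclease of histone mRNA decay, with 256, 257 and 115 (0.01 and -1.15), and the cleavage factor gene CPSF2, at -0.17 and 0.73.

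Histone chaperone genes went both ways, with medians of -0.06 and -0.07 (20 genes, 0 past limma's test). In both arrays 6 were higher and 9 lower (39.2% and 27.4% of all genes). ASF1B, the proliferation-linked H3-H4 chaperone gene, had 579, 832 and 996 (0.52 and 0.78). DAXX, an H3.3 chaperone, differed by 0.37 and 0.65, but its partner ATRX by -0.78 and -1.08. HIRA, which deposits H3.3, differed by -0.62 and -1.06, and HJURP, the chaperone of the centromeric CENPA, by -0.51 and -0.72.

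S phase genes had medians of 0.12 (B1) and 0.06 (B2), over 25 genes, with 0 past limma's test. In both arrays 12 were higher and 6 lower (39.2% and 27.4% of all genes). CCNE1, the cyclin E gene that drives entry into S phase, had 301, 537 and 922 (0.84 and 1.62). The licensing gene CDC6 had 351, 564 and 592 (0.68 and 0.76), CDT1 263, 325 and 448, and E2F1 202, 293 and 311. POLA1, the catalytic subunit of DNA polymerase alpha, had 396, 332 and 181 (-0.26 and -1.13). The difference between the histone list and this list was not tested.

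Squamous markers matched the label, with 9 of 11 measured and untreated intensities from 278 to 9444. The summed intensity of the 9, like the histone median, was highest in B2, with 27681 in untreated, 28137 in B1 and 44068 in B2. The median differences were -0.01 and 0.73, and 4 of 9 were at least 2-fold higher in B2 (2.99% of all genes). KRT14 had 278 in untreated, 276 in B1 and 2372 in B2 (log2 3.10 in B2), KRT5 1217, 1345 and 4251, and DSC3 359, 434 and 1125. Not all of them rose: EPCAM was slightly lower in both, with 4545, 4503 and 4190, and CDH1 was at -0.15 and 0.06. The part of the squamous marker difference in the histone values was not tested. Markers of leukocytes and endothelium lay below an intensity of 64 on every array, as did the fibroblast markers other than COL1A1 and THY1. COL1A1 had 122, 155 and 159, and THY1 had 59.5, 61.6 and 144, at least 2-fold higher in B2. The summed intensity of 8 fibroblast markers was 333, 362 and 452, of 6 leukocyte markers 144, 165 and 154, and of 6 endothelial markers 131, 156 and 153. The dimmest gene of each list in untreated was LUM (8.59), PTPRC (6.24) and KDR (8.55). Their part in the histone values was not tested. Over all genes B2 was the array that stood apart, with an SD of the log2 difference of 0.60 from untreated and 0.56 from B1, against 0.33 between B1 and untreated.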

How the data were processed

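RNA of KYSE140 cells was measured on 3 Affymetrix arrays. The deposited intensities (54675 probe sets per array) were made with RMA, per the submitters' processing notes, and ran from 3.03 to 19645, so they are linear, and log2 was taken with no pseudocount. The RMA version is not given in the sources used here, and without detection calls dim and undetected signals look alike. Of the probe sets, 62 controls were left out, 41091 had 1 gene symbol, 1801 several and 11721 none here. By gene number, symbols were matched to RefSeq (GRCh38.p14). The probe set of highest mean log2 value stood for each of 19775 genes.

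Cisplatin was compared with untreated over all genes in limma 3.58.1 (R 4.3.3, lmFit, eBayes, Benjamini-Hochberg, threshold 0.05). This takes the spread of the cisplatin pair for the untreated array too, and an SE combines that pair with a prior pooled over genes. A trial on simulated data gave all 3 arrays the same spread, so it could not check that assumption. Members and lists were chosen with earlier results of these data known. Genes named are members past 2-fold in an array, at a mean log2 value of at least 6 or among the 5 lowest, up to 5 of each list by size of mean difference among genes on the same side of untreated in both arrays, and SLBP, NPAT and H2AX. H1-5, H1-6, H2BC1, H3C1, H3C3, H3-4, MACROH2A2, CENPA, CPSF2, ERI1, CDH1 and KRT14 were added after their values were seen. Alternatives covered probe set choice, a filter on dim genes, normalization, thresholds, the variance prior and each cisplatin array alone.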

Additional observations from a re-analysis of the deposited data

How the results depend on the processing

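No histone gene or other gene passed limma's adjusted p of 0.05 under any of the 7 settings tried, with 264 to 639 genes at an unadjusted p under 0.05. The median histone difference stayed above 0 in both arrays under every setting, from 0.08 to 0.13 in B1 and from 0.35 to 0.71 in B2, the highest with the filter on dim genes (14 genes left, 0.71). That filter also left 11 histone genes higher and 1 lower in both arrays, because fewer genes were counted. Each cisplatin array alone gave 33 to 41 histone genes higher and 4 to 11 lower, 0 to 10 at least 2-fold higher and 0 to 1 at least 2-fold lower, and over all genes 47 to 591 at least 2-fold higher and 299 to 890 lower. The 10 histone genes came from B2 alone. In both arrays together, a 1.5-fold threshold gave 2 histone genes higher and 1 lower, with 189 and 524 of all genes, and a 3-fold threshold 4 and 24 of all genes. With the mean of a gene's probe sets, 38 genes were at least 2-fold lower in both arrays in place of 134, and H2AC15 changed the sign of its mean difference. The cause was not tested. Leaving out B1 turned the sign of the mean difference of H1-3, and leaving out B2 that of H1-2, H2AC14, H2AC15 and H4C8. No limma test was possible without B1 or B2, since no residual degrees of freedom remained. No paired analysis was possible because there is 1 untreated array and its label carries no replicate number. In the untreated array 22 histone genes lay below the array median, which splits all probe sets evenly, and signal over background limits any fold there.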
